A study of Mus musculus with 6 samples.

Results

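The olfactory bulb cells examined here are n06-Transition, a type that the study counted among the developing cells of the adult-born lineage and placed in the layer of the granule cells, the inhibitory interneurons that fill the deep layers of the bulb. Its members are the cells that carry the annotation n06-Transition in the deposited table of neuronal identities, and each cell was given to its library by the run recorded in that table. They numbered 2085 of 21746 neurons of 18 types and of 51426 annotated cells. The markers examined for the type are Dcx and Crhr1, 2 genes that are usually read as signs of opposite stages. The study named Dcx among the genes enriched in n06 and found none that labeled this type alone. It also saw Dcx-positive cells in other types that it held to be mature, and proposed that Dcx transcription may last through maturation. In sections it found cells stained for both Dcx and NeuN, a marker of mature neurons. It mentioned Crhr1 for the granule cells n12-GC-6. Because the study drew the 18 types from the expression of these same cells, every comparison of n06 with another type is a description, with the SD over libraries and without a test. Tests were kept for the comparisons between conditions.

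The cells came from the olfactory bulbs of male and female C57BL/6NJ mice of 14 weeks of age, with some olfactory epithelium left on the tissue, and were dissociated with papain and captured with the 10X Chromium 3′ v2 kit. The labels call 2 libraries control and give no manipulation for them. The text of the study in places speaks of naive controls and in places takes the open side of occluded mice as the control. Control and occluded libraries could therefore share their mice. Naris-occluded mice wore a plug that closed a nostril and so deprived the bulb on that side of odor input, and trained mice were deprived of water and learned to tell rewarded from unrewarded odors at a port, over many odor pairs. Both manipulations lasted 6 weeks, and each of the 3 groups has 2 libraries, numbered as in the labels. The labels give no number of mice per library. All values below are listed as replicate 1 and then replicate 2 of a group.

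New neurons are added to the bulb throughout adult life. They are born at the wall of the lateral ventricles, migrate to the bulb as chains of young cells, and become GABA-releasing granule or periglomerular cells. Doublecortin, the product of Dcx, binds microtubules in migrating and young neurons and is lost as they mature. Crhr1 codes for a receptor of corticotropin-releasing hormone and, in the bulb, is a feature of granule cells that have settled. As such cells settle they lower the genes of migration and growth and raise those of the receptors, channels and transmitter machinery of an interneuron.

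The n06 cells were shallow. The median n06 cell held 730 unique molecular identifiers (UMIs, each counting 1 captured transcript), 82.5% held under 1000, and the median number of detected genes was 496. The share of UMIs from the 13 mitochondrial genes was 15.7%. Granule cells n07-GC-2 were alike in this, at 882 UMIs in the median cell and a mitochondrial share of 17.3%, whereas in immature neurons, n04-Immature, these values were 1668 UMIs and 8.87%. Over libraries the n06 cells numbered 345 and 388 (control), 159 and 254 (occluded) and 555 and 384 (trained), and their summed counts ran from 156085 UMIs in occluded 1 to 454091 in trained 1. Occluded 1 and occluded 2 therefore rest on the fewest UMIs. The median depth of an n06 cell was lowest in occluded 2, at 645.5 UMIs, and highest in occluded 1, at 870.0. In every group UMIs of Xist were found only in replicate 2 (366 to 469 in n06 cells) and those of 4 Y-linked genes only in replicate 1, so the 2 libraries of a group hold mice of different sex and the 3 groups are balanced for it. Of the n06 barcodes, 1 was found in more than 1 library. The library in the annotation differs from the start of the cell's name for all 17275 annotated cells of the trained group, and the annotation was followed. By the start of the name trained 1 and trained 2 would change places. In that group the link of replicate number to sex therefore rests on this choice.

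Dcx was present in n06 at 445 ± 74.6 CPM (mean ± SD, n = 6 libraries), the counts summed over the n06 cells of a library and scaled to a total of 1000000 UMIs. By library the level was 370.1 and 401 (control), 487 and 499 (occluded) and 370.0 and 545 (trained), so that control and occluded libraries did not overlap and the trained libraries spanned both. Among the 18 types n06 ranked second, below n04 at 907 ± 53.5 CPM. The next types were n05-PGC-2 at 374 ± 49.2, n07 at 324 ± 66.4 and n11-GC-5 at 322 ± 62.5 CPM, and the ranges of all 3 over libraries overlapped that of n06. Within a library n06 was above n07 in 6 of 6, by 0.45 ± 0.23 on a log2 scale with 10 CPM added to each level, the scale of all ratios between types below. Against n04 the ratio was -1.02. The lowest level of the 18 types was that of the sensory neurons n01-OSNs, 52.0 ± 23.0 CPM.

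Crhr1 stood at 126 ± 15.4 CPM in n06, second to n07 at 129.5 ± 8.78, and the 2 types did not differ beyond their spread (log2 ratio -0.04 ± 0.14). The 6 libraries gave 120.0 and 104 (control), 128 and 143 (occluded) and 117 and 144 (trained). Both occluded libraries lay above both control libraries and the trained pair lay on either side of them. In n04, where Dcx was highest, Crhr1 was at 5.33 ± 1.82 CPM, close to the 4.71 ± 4.44 CPM of sensory neurons. Other types with Crhr1 were n05 at 90.8 ± 19.4 and n12-GC-6 at 88.4 ± 13.5 CPM. Crhbp, the gene of a protein that binds the hormone, was at 35.3 CPM in n06 against 78.2 in n07. The hormone gene Crh stood at 3.40 CPM and the second receptor gene Crhr2 at 0.544 CPM in n06.

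**Figure D1:**
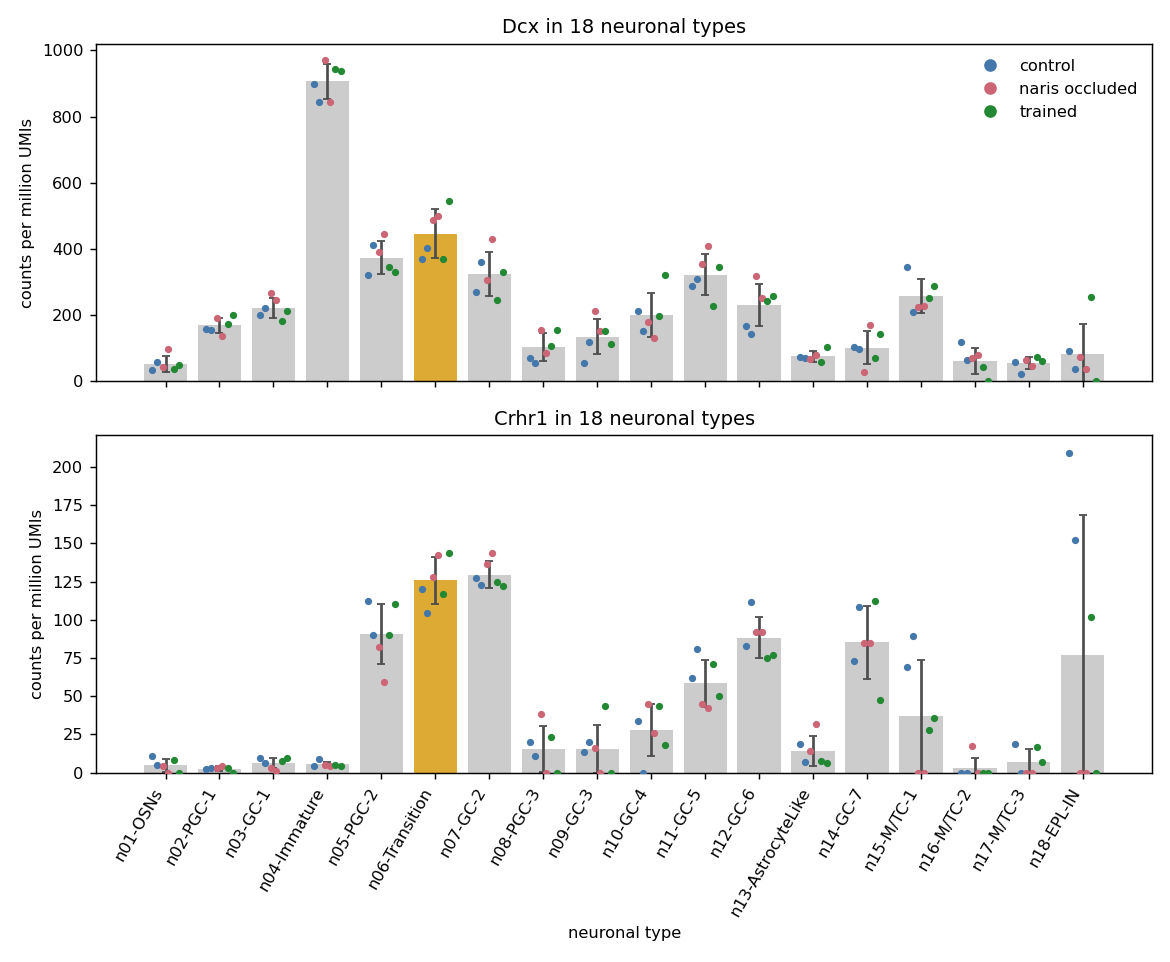
Levels of Dcx (top) and Crhr1 (bottom) in CPM, summed per library, in the 18 neuronal types. Bars are means over 6 libraries with the SD and points are libraries colored by condition. The n06 bar is second for both genes, below n04 for Dcx and beside n07 for Crhr1.

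To compare the share of cells in which the marker genes were seen, each cell was thinned at random to 500 UMIs, a depth that all n06 cells reach. A Dcx UMI was then found in 18.5% of n06 cells (95% Wilson interval 16.9 to 20.2), in 35.2% of n04 cells and in 14.3% of n07 cells (13.2 to 15.5). A Crhr1 UMI was found in 6.67% of n06 cells (5.67 to 7.82), 0.256% of n04 cells and 5.35% of n07 cells (4.66 to 6.13). Sensory neurons, whose median depth of 808.5 UMIs is close to that of n06, were taken as a type that should lack both genes and gave 1.75% for Dcx and 0.25% for Crhr1. Mitochondrial genes took 40.6% of their UMIs, against 15.7% in n06, so fewer of the 500 UMIs could fall on other genes. In n17-M/TC-3, mitral and tufted cells of a median depth of 865 UMIs and a mitochondrial share of 13.7%, a Dcx UMI was found in 2.05% and a Crhr1 UMI in 0.431% of cells. Without thinning the shares were 28.0% (Dcx) and 9.30% (Crhr1) in n06, 24.4% and 10.3% in n07, and 4.25% and 0.583% in sensory neurons. The intervals cover counting error only, since the cells of a type come from 6 libraries.

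Each marker was seen in a minority of n06 cells at this depth, so few cells could show both. Of the 2085 cells, 584 had a Dcx UMI, 194 a Crhr1 UMI, 59 had both and 1366 had neither. After thinning these numbers were 386, 139, 32 and 1592. Dcx was thus seen in 59 of the 194 cells with Crhr1, beside 584 of all 2085, and the counts do not show that the markers exclude each other. Since free RNA can add a UMI of either gene to a droplet, these counts do not show in how many cells both genes were on.

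The label of a transition was next checked against 25 genes of immature neurons, a list that covers migration, growth of the cell skeleton and the early regulators of bulb interneurons. By summed level n06 did not lie midway between immature and granule neurons. The list summed to 3572 ± 259 CPM in n06, 33232 ± 1379 in n04 and 3169 ± 226 in n07. The 6 n06 sums were 3425 and 3262 (control), 3927 and 3847 (occluded) and 3508 and 3465 (trained), with both occluded libraries highest. Ordered from the highest sum, n06 was number 13 of the 18 types. Against n04, 23 of the 25 members were lower in n06 in all 6 libraries and 0 were higher, with a median log2 ratio of -2.81. Over the 8064 genes with at least 20 CPM in either type the median was 0.14, 35.8% were higher and 27% lower in all 6 libraries.

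Sox11, a transcription factor of young neurons, stood at 68.9 ± 16.9 CPM in n06 against 2085 in n04 and 53.9 in n07. Cd24a, a surface protein of migrating neuroblasts, was at 28.3 CPM against 1106 in n04, and Igfbpl1 at 57.3 against 1544. For Dlx2, a homeobox regulator of GABAergic fate, the levels were 59.0 and 446 CPM. A Sox11 UMI was found in 2.88% of thinned n06 cells, 57.1% of n04 cells, 2.16% of n07 cells, 1.83% of sensory neurons and 0.755% of n17 cells. The interval of n06 (2.24 to 3.69) overlapped that of sensory neurons (1.21 to 2.76), whose mitochondrial share was higher, and lay above that of n17 (0.366 to 1.55). Dlx6 (57.7 CPM against 51.3) and St8sia4 (57.4 against 38.1), the gene of an enzyme that adds polysialic acid to cell surfaces, were the 2 members not lower than n04 in every library.

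Against n07 the differences in this list were small and mostly positive. Of 23 members compared, 7 were higher in n06 in all 6 libraries and 1 was lower, with a median of 0.26, beside a median of 0.15 over all 7583 genes compared, of which 15.1% were higher and 10.8% lower in all 6. The 7 were Dcx, Sox4 (177 CPM in n06, 135 in n07), Stmn1 (309 and 264), Dlx1 (253 and 202), Dlx6os1 (261 and 197), Robo2 (177 and 128) and Tmsb10 (544 and 454). Besides doublecortin they code for a Sox and a Dlx transcription factor, a noncoding RNA of the Dlx5 and Dlx6 locus, a guidance receptor for Slit, and proteins that bind tubulin or actin. The lower member was Ncam1, a cell adhesion gene, at 323 against 489 CPM.

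**Figure D2:**
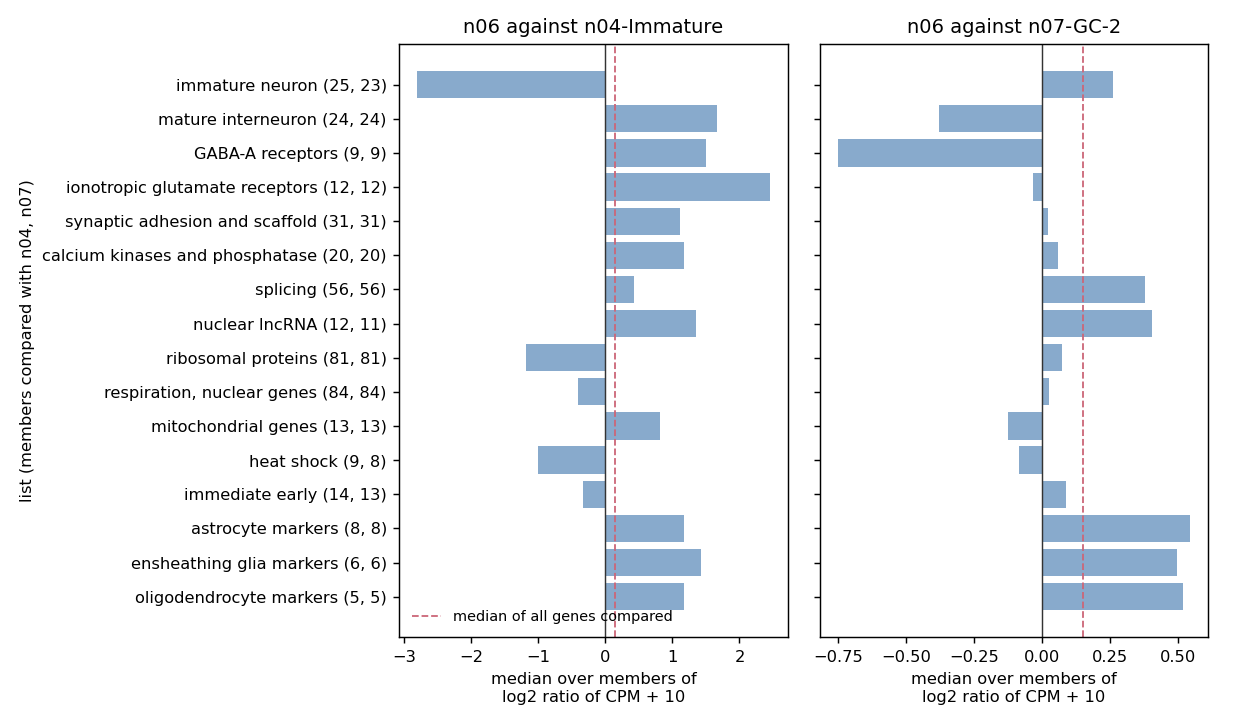
Median over the members of each list of the log2 ratio of n06 to n04 (left) and to n07 (right), with 10 CPM added to each level; the members compared are given in brackets and the dashed line is the median of all genes compared (0.14 and 0.15). The axes differ in scale. Against n04 the immature list lies at -2.81. Against n07 the lists for splicing, nuclear noncoding RNA and markers of astrocytes, ensheathing glia and oligodendrocytes lie above the dashed line and GABA-A receptors at -0.75.

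Genes of mature interneurons placed n06 between the other 2 types in sum, and unevenly so. The 24 genes summed to 15441 ± 921 CPM in n06, 6901 ± 484 in n04 and 25838 ± 1407 in n07. Against n04, 18 were higher in all 6 libraries and 4 lower (median 1.66), beside 35.8% and 27% of all genes (median 0.14). Against n07, 2 were higher and 12 lower (median -0.38), beside 15.1% and 10.8% of all genes (median 0.15). The enzymes that make GABA did not differ from n07 beyond their spread: Gad1 was at 1007 ± 103 CPM in n06 and 1004 in n07, and Gad2 at 199 and 189.6. Slc32a1, which codes for the vesicular GABA transporter, did differ, at 163 ± 32.0 CPM in n06 against 598 ± 32.6 in n07. The n06 libraries gave 143 and 180.2 (control), 147 and 121 (occluded) and 209 and 179 (trained), each below n07 of the same library.

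Besides Slc32a1, the 12 members below n07 in all 6 libraries included the vesicle proteins Syt1 (1132 CPM in n06 against 1756 in n07) and Synpr (556 against 1762), and the neuropeptide precursors Penk (116 against 447) and Scg2 (286 against 908). Atp1b1, of an ion pump, was among them at 1509.6 against 4431 CPM, as were the potassium channels Kcnj4 (107 against 363) and Kcnd2 (134 against 296). Also below were Tpbg (61.3 against 205), Itm2b (1431 against 4335) and Shisa8 (270.5 against 1041), the last an auxiliary protein of AMPA receptors. Among the other 12 members were Meis2, a homeobox regulator (1831 against 1411, higher in all 6), Rbfox3, of a splicing factor of mature neurons (225 against 189), and Pcp4, of a calmodulin-binding protein (1348 against 1439).

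Receptor genes were divided as well. The 12 genes of GABA-A receptor subunits summed to 894 ± 78.2 CPM in n06, 278 ± 22.8 in n04 and 1588 ± 93.7 in n07. Of the 9 with at least 20 CPM in either type, all were above n04 in all 6 libraries and 8 were below n07 in all 6 (medians 1.504 and -0.75). Of all genes compared, 35.8% were above n04 and 10.8% below n07 in all 6. Gabra5 was at 76.3 CPM against 238 in n07, Gabrd, of extrasynaptic receptors, at 46.8 against 159 and Gabra2 at 279 against 439.6. Gabrb1 was the exception, at 66.9 against 41.7 CPM. Ionotropic glutamate receptor genes were near the n07 level: their sums were 6616 ± 613 CPM in n06, 1108 in n04 and 6967 ± 346 in n07, and the median of the 12 of 18 members compared was 2.45 against n04 and -0.03 against n07. Gria2 (2988 CPM, the highest of the 18 types) and Gria3 (489 CPM) code for AMPA receptor subunits, and Gria3 was at 19.2 CPM in n04 and 532 in n07. The NMDA receptor genes Grin1 (470.2 against 587), Grin2a (198 against 270.1) and Grin2b (1525 against 1863) and the kainate receptor gene Grik3 were below n07 in all 6 libraries, and Grik2 (110.0 against 90.7) was above.

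Synaptic adhesion and scaffold genes were mixed against n07. Of 31, 26 were above n04 in all 6 libraries (median 1.12), whereas 4 were above and 8 below n07 (median 0.02), beside 15.1% and 10.8% of all genes. Above n04 in all 6 were 35.8% of all genes. Cttnbp2, Ank2, Ank3 and Shank2 were the 4 above n07, Cttnbp2 with 721 against 486 CPM. Those below included the adhesion genes Nrxn2 (389.9 against 664) and Cadm2 (368 against 629). Calcium-dependent kinase and phosphatase genes were closer to n07 than to n04, with medians of 0.06 and 1.18 over 20 members.

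Genes of RNA splicing and noncoding RNAs that stay in the nucleus were often above n07. Of 56 splicing genes, 35 were higher than in n07 in all 6 libraries and 0 were lower (median 0.38), against a background of 15.1% and 10.8%. Their sum was 25628 ± 1668 CPM in n06, 19137 ± 937 in n07 and 17982 ± 713 in n04, and n06 ranked second of the 18 types. Srrm2, the gene of a scaffold protein of nuclear speckles, was at 1452 ± 227 CPM in n06, 825 in n07 and 478 in n04. Son, of the same speckles, was at 1667, 1180.2 and 785 CPM, the highest of the 18 types. The RNA-binding protein genes Sfpq (659.7, 391 and 425), Luc7l3 (799, 519.9 and 262) and Celf2 (1519.6, 985 and 821) were also highest in n06 of the 3 types. Against n04, 29 were higher and 13 lower in all 6 (median 0.42), beside 35.8% and 27% of all genes. The number lower is thus near the share of all genes. Hnrnpa1 (85.7 against 834 CPM), Hnrnpk (307 against 1028) and U2af1 (95.7 against 311) were among the lower.

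Of 11 nuclear noncoding RNAs, 8 were above n07 in all 6 libraries and none was below (median 0.41), beside 15.1% and 10.8% of all genes. Snhg11 was at 3654 ± 712 CPM in n06, 2699 in n07 and 93.2 in n04. Meg3, the noncoding RNA of an imprinted locus, was at 5508, 3863 and 3244 CPM, and Ftx, of the X-inactivation center, at 164, 103 and 12.8. Neat1, which builds paraspeckles, was at 55.1 against 21.4 CPM in n07, and Kcnq1ot1 at 629.6 against 483. Malat1, a speckle-associated RNA, did not differ from n07 beyond its spread (57577 ± 7130.4 against 58040.3 CPM).

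Transcription regulators were above n07 and below n04 more often than genes at large. Of 22 regulators of interneuron development and of activity, 12 were above n07 in all 6 libraries and 0 below (median 0.30). Against n04, 7 were above and 11 below (median -0.41). Of all genes compared, 15.1% were above and 10.8% below n07, and 35.8% above and 27% below n04. The 7 above n04 are near that share. The study drew some of the regulators, among them Runx2, Tcf4 and Mef2d, from these same cells, so the counts are no independent evidence of a direction. Runx2 was highest in n06 of the 18 types, at 66.8 ± 11.1 CPM, against 41.6 in n07 and 5.004 in n04. Its libraries gave 66.7 and 66.4 (control), 57.7 and 87.8 (occluded) and 57.3 and 65.2 (trained), with occluded 2 above the rest. Factors tied to neuronal differentiation that were higher in n04 also stayed above n07: Nfib was at 115 CPM in n06, 54.9 in n07 and 1172 in n04, and Tcf4 at 675, 478 and 1248 CPM. Sp8, which marks some immature bulb interneurons, was at 105, 97.1 and 695 CPM. Mef2c, an activity-regulated factor of maturing neurons, was level with n07 (867 and 866 CPM) and above n04 (256).

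The genes that set n06 most apart from the mean of the other 17 types were largely shared with n07. By the size of the ratio the first were Cpa6, the gene of a carboxypeptidase (299 ± 32.5 CPM, log2 ratio 2.40), Eml5, of a microtubule-associated protein (669.7 ± 124 CPM, 2.23), and Col6a1, of a collagen VI chain (179.8 ± 18.4 CPM, 2.23). The 12 that followed were Gm15856, 4430402I18Rik, Adamts19, Gm15594, Trank1, Bzrap1, R3hdm1, Dot1l, Il1rapl1, Kank3, Ano3 and Ftx. Of these 15 genes n06 had the highest level of the 18 types for 10 and the second for the other 5, and n07 had the highest level of the other types for 12. Eml5, Trank1, Bzrap1, R3hdm1 and Ftx were above n07 in all 6 libraries, and Ano3, of an anoctamin membrane protein, was below (462 against 651 CPM). Adamts19 and Gm15594 rest on low levels (88.9 ± 31.1 and 87.0 ± 23.8 CPM). Over 10677 genes the mean log levels of n06 correlated with those of n07 at Pearson's r = 0.959, of n11 at 0.908, of n12 at 0.889 and of n04 at 0.788, as a description across genes, which are not replicates and share depth and library with each other.

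The 10 genes lowest in n06 against the mean of the other 17 types included Ly6g6e, Nmb, Cck, Trh, Vsnl1, Cdhr1, Eomes, Olfm1 and Ms4a15. These low ratios are not particular to n06, which ranked between 6 and 16 of the 18 types for them, and 2 of the 10 were below n07 in all 6 libraries. Cdhr1, for instance, was at 26.9 CPM in n06, 25.8 in n07 and 15.0 in n04, against 2115 in n17. Among them are peptide precursors (Nmb, Cck and Trh) and defining genes of the mitral and tufted cells, the output neurons of the bulb, such as the cadherin gene Cdhr1 (log2 ratio -2.65) and the transcription factor gene Eomes (-2.54). Against n04 the highest ratios were those of Snhg11 (5.17), Gm15856, Cpa6, Ano3, Gria3 (4.17), 4430402I18Rik, Inpp5j, Trank1, 9530059O14Rik and Cit. The lowest were those of Cd24a (-4.94), Sox11 (-4.76), Igfbpl1 (-4.55), Stmn2, Ccnd2, Tmsb10, Prokr2, Tubb2b, Islr2 and Serf1, which include 2 genes of the neuronal cytoskeleton (Stmn2 and Tubb2b), the cyclin gene Ccnd2 and Prokr2, a receptor that guides neuroblasts to the bulb.

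Against its closest type, n07, the genes with the highest ratios were Gm3764 (181 ± 43.0 CPM against 62.8, log2 ratio 1.40), Pik3r1, the regulatory subunit of a lipid kinase (109 ± 8.74 against 40.3, 1.26), Neat1 (1.08), Dnm3, a dynamin (162 against 73.5, 1.04), Nav1, a neuron navigator of growing axons (131 against 58.6, 1.03), Gsk3a, Nfib (0.99), Phf20l1, Sash1 and Adrbk2. Gm3764, Pik3r1, Nav1 and Nfib were higher still in n04, at 478, 210.3, 208 and 1172 CPM, so that for these 4 n06 lay between n04 and n07. The 10 lowest were Tmem158 (75.5 ± 20.6 against 308 CPM, -1.91), Shisa8 (-1.91), Penk (-1.88), Arxes1, Slc32a1 (-1.83), Cort, C1qtnf4 (554 ± 49.5 against 1904 CPM), Arl6ip5, Fjx1 and Tnfaip6. Shisa8, Penk and Slc32a1 were also members of the mature list. Arxes1 has a near-identical neighbor, Arxes2, and its reads could be split between them.

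The difference of n06 from other types followed the length of the gene on the chromosome. Spans were taken from RefSeq for GRCm38.p6 and were found for 95.2% of the genes compared with n04. Against n04 the median log2 ratio was -0.44 for the 883 genes under 5 kb and 0.96 for the 506 genes over 200 kb. Against n11, a granule type of greater depth (median 2110 UMIs), it went from -0.43 to 0.33. Against n14-GC-7, a granule type as shallow as n06 (median 690.0 UMIs) but with a mitochondrial share of 30.0%, it went from 0.04 to 0.88, with 0.96 for genes of 100 to 200 kb. Against n07, which is also shallow, the medians lay between 0.09 and 0.24 in every bin. Across genes the rank correlation of ratio and span was 0.310 against n04, 0.337 against n11, 0.264 against n14 and 0.129 against n07, given as a description, since genes are not independent replicates. The 10 genes highest against n07 had a median span of 87.5 kb (9 with a span) and the 10 lowest one of 5.98 kb.

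**Figure D3:**
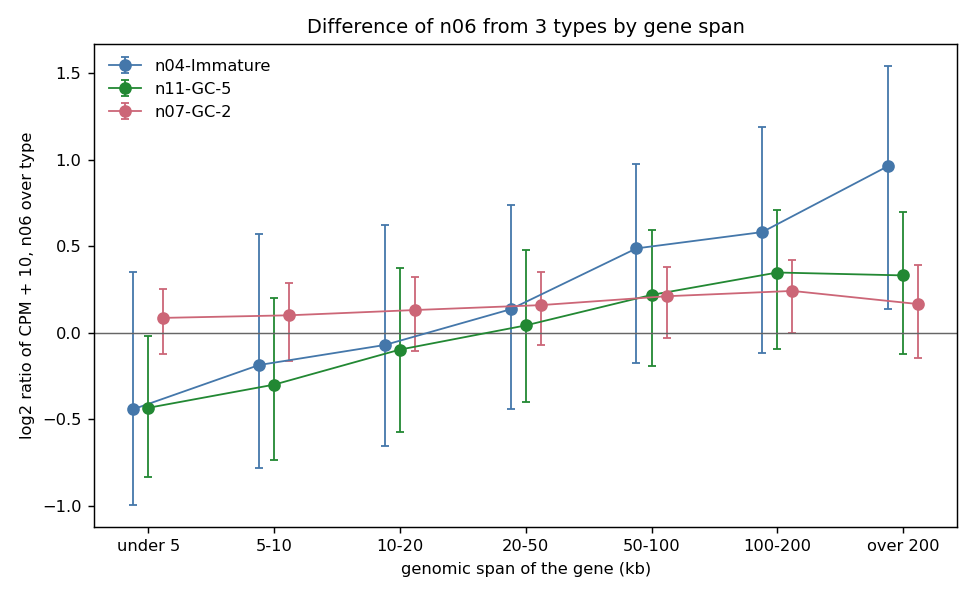
Median log2 ratio of n06 to n04, n11 and n07 (10 CPM added) over genes grouped by genomic span in kb, with bars from the lower to the upper quartile of the genes. The medians against n04 climb from -0.44 to 0.96 and those against n11 from -0.43 to 0.33, while those against n07 stay between 0.09 and 0.24.

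Genes of protein synthesis and energy supply placed n06 with n07. Ribosomal protein genes summed to 68233 ± 5178 CPM in n06, 66796 in n07 and 142617 in n04, and 80 of 81 were below n04 in all 6 libraries (median -1.18). The 13 mitochondrial genes were all above n04 in all 6 (median 0.81), while the nuclear genes of respiration were mostly below it (55 of 84 lower in all 6, median -0.41). Of all genes compared, 35.8% were above and 27% below n04 in all 6. Against n07 the 3 medians were 0.07, -0.12 and 0.03, none of them above the median of all genes. Heat shock genes were lower than in n04 (median -1.01 over 9) and near n07 (-0.08 over 8). Genes of dividing cells summed to 131 ± 21.1 CPM in n06 and 433 in n04. Top2a, of DNA replication and mitosis, was at 1.61 CPM against 27.4 in n04, and Birc5 and Ccnb1 had no UMI in n06 in any library.

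Markers of several cell types that are no bulb interneurons were somewhat higher in n06 than in n07. Of all genes compared, 15.1% were higher and 10.8% lower in all 6 libraries, with a median of 0.15. Astrocyte markers summed to 5670.1 ± 646 CPM in n06 (4653 to 6394 over libraries) and 4010.0 in n07, with 6 of 8 higher in all 6 libraries and a median of 0.55. Olfactory ensheathing glia markers summed to 3335 ± 531 (2585 to 4028) and 2650.1 CPM, with 3 of 6 higher and none lower (median 0.50). Oligodendrocyte markers stood at 3127 ± 682 (2534 to 4439) and 2032 CPM, with 4 of 5 higher (median 0.52). Sensory neuron markers stood at 2600.4 ± 664 (1504 to 3229) and 1647 CPM, with 2 of 5 higher (median 0.57), and endothelial markers at 324 and 229 CPM (median 0.56). Most of these sums came from few genes: Apoe, of lipid transport, was at 4576 CPM, Mbp, of myelin, at 2257, S100a5 and Gng13 of sensory neurons at 1301 and 1192, while Omp, the defining gene of mature sensory neurons, was at 45.9. Markers of mitral and tufted cells summed to 123 CPM (75.03 to 139) and those of microglia to 387 CPM (336 to 505). Every member of these 7 lists had UMIs in n06. Lists of mural cells, oligodendrocyte precursors and red blood cells did not rise above all genes, with medians of 0.02, 0.05 and 0.14 against n07. They had 2, 1 and 3 members compared, of which 0 were higher in all 6 libraries. The part of such RNA in the differences from n07, nuclear noncoding RNA and splicing genes included, was not tested.

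The study had also clustered all bulb cells, and most n06 cells fell in 1 of its neuronal clusters. Of the 2085, 1668 (80.0%) lay in cluster N9, 216 (10.4%) in N11 and 138 (6.62%) in N8, and no other cluster held more than 26. Cluster N11 is unlike the others, since 660 of its 951 cells carry no neuronal type. The N8 cells of n06 held more of some mature granule cell genes than the N9 cells. Atp1b1 was at 3277 against 1405 CPM (log2 ratio 1.20, higher in 6 of 6 libraries), Tpbg at 143 against 57.6 (6 of 6) and Crhr1 at 267 against 122 (5 of 6). Dcx was at 419.8 against 443 CPM and higher in 2 of 6 libraries. The immature list as a whole was lower in the N8 cells in all 6 libraries (3053 against 3557 CPM, log2 ratio -0.23). The N8 cells numbered only 15 to 42 in a library, at a median of 728 UMIs, so their levels of low genes rest on few UMIs. The whole-bulb clusters were also drawn from the expression of these cells, so these values are a description. The N11 cells were deeper (median 1127.5 UMIs, of which 10.2% were mitochondrial) than those of N9 (711 UMIs and 16.8%) and were higher in all 6 libraries in the sums of splicing genes (log2 ratio 0.39), glutamate receptors (0.39) and synaptic adhesion genes (0.31). The 364 n06 cells with at least 1000 UMIs carried less Crhr1 than the rest (89.2 against 141 CPM, lower in all 6 libraries) and more of the ensheathing glia markers (log2 ratio of the sums 0.74, higher in 6 of 6) and astrocyte markers (0.54). Only a few cells can set a low gene: 33 Sst UMIs were counted in control 2, and 32 of them came from 1 cell.

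The first question across conditions was how large a share of the adult-born neurons n06 made up after odor deprivation and after training. Of the cells in the 12 adult-born types, n06 made up 10.8% and 17.4% (control), 6.81% and 8.68% (occluded) and 16.6% and 16.9% (trained), of 2228 to 3336 adult-born neurons each. Both occluded libraries lay below all others, and the trained pair lay within the control range. The log2 difference of occluded from control was -0.86 ± 0.30 (SE, edgeR's quasi-likelihood test on cell numbers, Benjamini-Hochberg adjusted p = 0.0300), a fold of 0.552. That of trained from control was 0.25 ± 0.30 (adjusted p = 0.680 by the same test), and that of trained from occluded was 1.11 ± 0.30 (adjusted p = 0.00309), a fold of 2.16. Of the 12 types, 25% passed in the comparison of occluded with control libraries, 0% in that of trained with control (none at an unadjusted p under 0.05 either) and 25% in that of trained with occluded. Besides n06, n14-GC-7 and n03-GC-1 passed in both comparisons with the occluded group. For n14, also a shallow type, the log2 difference of occluded from control was -1.91 and that of trained from occluded 1.91, both larger than in n06. For n03 these were 0.86 and -1.27. A 2-sided exact permutation test of 2 against 2 libraries cannot go below 0.333, which is the value it gave for n06 in both comparisons with the occluded group. The trained-control and occluded-control comparisons share their control libraries.

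The call of a lower share after occlusion was lost under several alternatives, of which those without a library leave 1 library in a group, assumed to vary like the others. Without control 2 the difference from control was -0.47 (adjusted p = 0.762), and it also missed the threshold without either occluded library (-0.69 with adjusted p = 0.167 and -1.04 with adjusted p = 0.183) and with all 18 neuronal types as the denominator (-0.67, adjusted p = 0.135). The shallowest n06 cell held 517 to 683 UMIs depending on the library, so each library has its own floor. With a common floor of 700 UMIs, chosen after the data were seen, the shares were 8.36 and 12.5 (control), 6.17 and 4.18 (occluded) and 12.002 and 10.8 (trained) percent, and with cells of at least 1000 UMIs 3.29 and 4.85 (control), 2.86 and 1.34 (occluded) and 6.22 and 4.80 (trained) percent. Both occluded libraries were again the lowest in each, while the difference from control missed the threshold (-1.01 with adjusted p = 0.108 and -0.95 with adjusted p = 0.387). n07 made up 22.8 and 23.1 (control), 25.2 and 12.3 (occluded) and 24.5 and 26.2 (trained) percent of adult-born neurons and n04 22.5 and 19.3 (control), 24.1 and 32.1 (occluded) and 20.9 and 24.7 (trained) percent, so that occluded 2 held the lowest share of n07 and the highest of n04. The difference of trained from occluded libraries missed it without either occluded library (0.95 with adjusted p = 0.0931 and 1.30 with adjusted p = 0.0543), and that of trained from control libraries turned to -0.055 without control 1. In cells of at least 1000 UMIs the difference of trained from occluded libraries missed the threshold as well. That of occluded from control libraries also missed it with all annotated bulb cells as the denominator. The part of capture and depth in the shares was not tested.

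**Figure D4:**
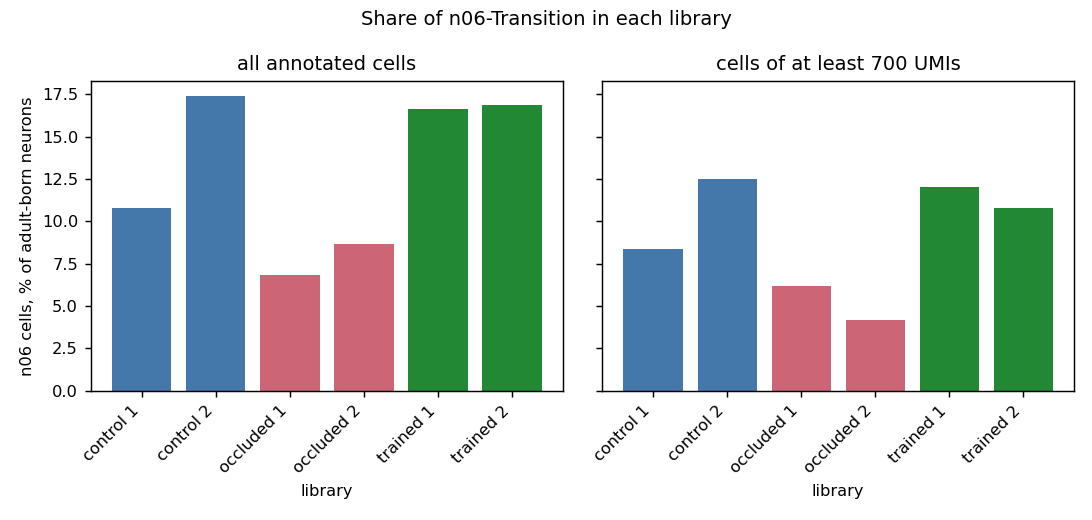
Share of n06 cells among adult-born neurons in each library, in percent, for all annotated cells (left) and for cells of at least 700 UMIs (right). Each bar is 1 library, so there is no error bar. The 2 occluded libraries are the lowest in both panels, at 6.81 and 8.68 percent on the left.

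Gene levels within n06 were then compared between conditions on counts summed per library, over 6048 genes that passed a filter on low counts. With edgeR's quasi-likelihood test and a Benjamini-Hochberg adjusted p under 0.05, 1 gene (0.0165%) passed between occluded and control libraries, 4 (0.0661%) between trained and control and 7 (0.116%) between trained and occluded. At an unadjusted p under 0.05 the numbers were 306, 293 and 456. Neither marker was among them. Dcx differed between occluded and control by 0.31 ± 0.24 on a log2 scale (SE, adjusted p = 0.986) and Crhr1 by 0.23 ± 0.30 (adjusted p = 0.992), although for both genes the groups did not overlap, as was so for 19.8% of all genes in the higher and 15.2% in the lower direction.

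S100a5, which codes for a calcium-binding protein of olfactory sensory neurons, fell with occlusion. Its level in n06 was 1827 and 1821 (control), 1211 and 329 (occluded) and 1550.3 and 1070.0 (trained), with occluded 2 far below the others and occluded 1 above trained 2. The log2 change against control was -1.31 ± 0.23 (edgeR adjusted p = 2.69e-04), and without occluded 2 it was -0.65 (adjusted p = 0.922) and without occluded 1 -2.54. With DESeq2 it was -1.28 and did not pass (adjusted p = 1.00), and in cells of at least 1000 UMIs it was -0.93 (edgeR adjusted p = 0.999). In other types both occluded libraries were the lowest. In n01-OSNs the gene stood at 28031 and 25567 (control), 15027 and 10026 (occluded) and 19259 and 25037 (trained) CPM, in n07 at 1141 and 1164 (control), 466 and 217 (occluded) and 1357 and 683 (trained) and in n04 at 717 and 671 (control), 233 and 127 (occluded) and 764 and 296 (trained). Of the 4 sensory markers tested in n06, S100a5 included, 2 were lower and 2 higher in the occluded libraries. Gng13, a G protein subunit, was at 1110.4 and 1002 (control) and 1890.0 and 1092 (occluded) CPM (log2 difference 0.45, edgeR adjusted p = 0.938). The part of free RNA from sensory neurons in the n06 value was not tested.

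In n06, 3 genes were higher in trained than in control libraries. Trained mice were also deprived of water, which is not described for control mice, and its part was not tested. Zmym1, of a zinc-finger protein, stood at 113 and 66.4 (control), 51.3 and 121 (occluded) and 385 and 209 (trained), with both trained libraries above the rest, and its log2 change was 1.72 ± 0.25 (edgeR adjusted p = 2.19e-07). Noct, of the circadian enzyme nocturnin, was at 26.7 and 25.3 (control), 44.8 and 65.9 (occluded) and 117 and 68.5 (trained) CPM and changed by 1.82 ± 0.38 (adjusted p = 0.00903). These Noct levels rest on few UMIs, 8 and 8 (control), 7 and 12 (occluded) and 53 and 21 (trained). Hspa5, which codes for the chaperone BiP of the endoplasmic reticulum, was at 153 and 123 (control), 199 and 143 (occluded) and 308 and 281 (trained) CPM and changed by 1.04 ± 0.23 (adjusted p = 0.0179). In n07 the trained libraries were likewise the highest for all 3, with Zmym1 at 55.7 and 54.0 (control), 54.1 and 96.9 (occluded) and 273 and 140.3 (trained) CPM, Noct at 35.8 and 51.9 (control), 27.1 and 43.4 (occluded) and 80.0 and 77.3 (trained) CPM and Hspa5 at 344 and 349 (control), 385 and 401 (occluded) and 566 and 529 (trained) CPM. Hbb-bs, a hemoglobin chain of red blood cells, fell by 1.32 (SE 0.29, adjusted p = 0.0143), from 220.1 and 88.5 CPM in control libraries to 57.3 and 71.8 in trained ones. In n07 it likewise stood at 174 and 97.5 CPM in control libraries and 41.9 and 77.3 in trained ones. Markers of red blood cells summed to 310.1 and 155 (control), 346 and 263 (occluded) and 99.1 and 117 (trained) CPM in n06. Hbb-bs has a near-identical copy, Hbb-bt, so that its reads could be split between the 2 genes.

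Each of these calls missed the threshold in some of the alternatives. With DESeq2 none of the 4 passed, at log2 changes between -1.32 and 1.80 that were close to those of edgeR. A fit without a control or a trained library leaves that group with 1 library, whose spread is taken from the others, so that a missed threshold there does not show a smaller change. Noct missed the threshold with edgeR without either control library (adjusted p = 0.151 and 0.287) and without trained 1 (0.541), with log2 changes of 1.85, 1.77 and 1.29. Hspa5 missed it in the same 3 cases (0.151, 0.998 and 0.157), with changes of 1.20, 0.88 and 0.92, with no filter beyond 1 UMI (1.07, adjusted p = 0.0553) and in cells of at least 1000 UMIs (1.26, adjusted p = 0.632). In such cells Hbb-bs missed it as well (-1.19, adjusted p = 0.992). Zmym1 missed it without control 2 (log2 change 1.36, adjusted p = 0.0581) and without trained 1 (1.12, adjusted p = 0.0968). Hbb-bs changed by -0.53 without control 1 (adjusted p = 1.00), the control library with the higher level, and by -1.18 without trained 1 (adjusted p = 0.193). With the replicate number as a block it changed by -1.34 and missed the threshold (adjusted p = 0.0511).

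Between the trained and occluded libraries 6 genes were higher and 1 lower in n06. R3hdm1, of an RNA-binding R3H-domain protein and one of the genes highest in n06, stood at 1457 and 1561 (control), 1153 and 977 (occluded) and 2033 and 2643 (trained), in the order trained, control and occluded with no overlap. Its log2 change from occluded to trained was 1.12 ± 0.21 (edgeR adjusted p = 4.57e-04), and it was the only gene of the 7 that also passed with DESeq2. Syt10, a synaptotagmin of activity-dependent secretion, was at 237 and 215 (control), 70.5 and 132 (occluded) and 297 and 336 (trained) CPM and changed by 1.60 ± 0.28 (adjusted p = 8.48e-05). Sybu, whose product syntabulin links cargo to the axonal motor, was at 100.0 and 79.0 (control), 32.0 and 10.98 (occluded) and 92.5 and 88.1 (trained) CPM (change 2.10 ± 0.49, adjusted p = 0.0232). Pcdh17, a protocadherin, was at 183 and 215 (control), 103 and 121 (occluded) and 355 and 225 (trained) CPM (change 1.39 ± 0.28, adjusted p = 0.00119), and Ypel4 at 140.1 and 123 (control), 57.7 and 54.9 (occluded) and 149.8 and 192 (trained) CPM (change 1.57 ± 0.34, adjusted p = 0.00622). For Sybu and Ypel4 the control levels were near the trained ones, whereas for Pcdh17 control lay between. The occluded levels rest on few UMIs, 5 and 2 for Sybu and 9 and 10 for Ypel4. Zmym1 and Hbb-bs were the other 2 (changes 1.78 ± 0.29 and -1.56 ± 0.31). Without occluded 1 all 7 missed the threshold, with an adjusted p between 0.0505 for R3hdm1 and 0.437 for Hbb-bs, in a fit that leaves 1 occluded library. The log2 changes in it were 1.26 for R3hdm1, 3.02 for Sybu, 1.63 for Ypel4, 1.30 for Pcdh17, 1.27 for Syt10, 1.35 for Zmym1 and -1.26 for Hbb-bs. Without occluded 2 it was missed by R3hdm1 (change 1.01, adjusted p = 0.214), Ypel4 (1.54, 0.249), Pcdh17 (1.52, 0.109) and Sybu (1.49, 0.627), while Zmym1 went to 2.56. Without trained 1 it was missed by Zmym1 (1.20, 0.129), Hbb-bs (-1.41, 0.0666), Pcdh17 (0.96, 0.350) and Sybu (2.02, 0.126). With only the trained and occluded libraries in the fit R3hdm1 (1.10, adjusted p = 0.0671), Ypel4 (1.56, 0.0576), Pcdh17 (1.37, 0.0576) and Sybu (2.08, 0.118) missed it. In cells of at least 1000 UMIs, where Sybu was not tested, none of the other 6 passed, with changes from 0.83 for Syt10 to 0.99 for Zmym1 and of -1.31 for Hbb-bs. With the replicate number as a block Sybu changed by 2.07 and missed it (adjusted p = 0.0750).

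For R3hdm1, Pcdh17 and Syt10 the trained libraries were also the highest in n07. There R3hdm1 stood at 892 and 894 (control), 851 and 912 (occluded) and 1456 and 1522 (trained) CPM. Its occluded libraries thus lay on either side of control, unlike in n06. Pcdh17 was at 284 and 293 (control), 180.4 and 217 (occluded) and 486 and 333 (trained) CPM. Syt10 was at 243 and 230.3 (control), 241 and 174 (occluded) and 321 and 331 (trained) CPM. Ypel4 stood in n07 at 104 and 83.0 (control), 119 and 127 (occluded) and 115 and 115 (trained) CPM and Sybu at 67.7 and 62.3 (control), 58.6 and 70.2 (occluded) and 83.9 and 80.9 (trained) CPM, so that the gap between occluded and trained libraries was absent for the former and smaller for the latter.

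**Figure D5:**
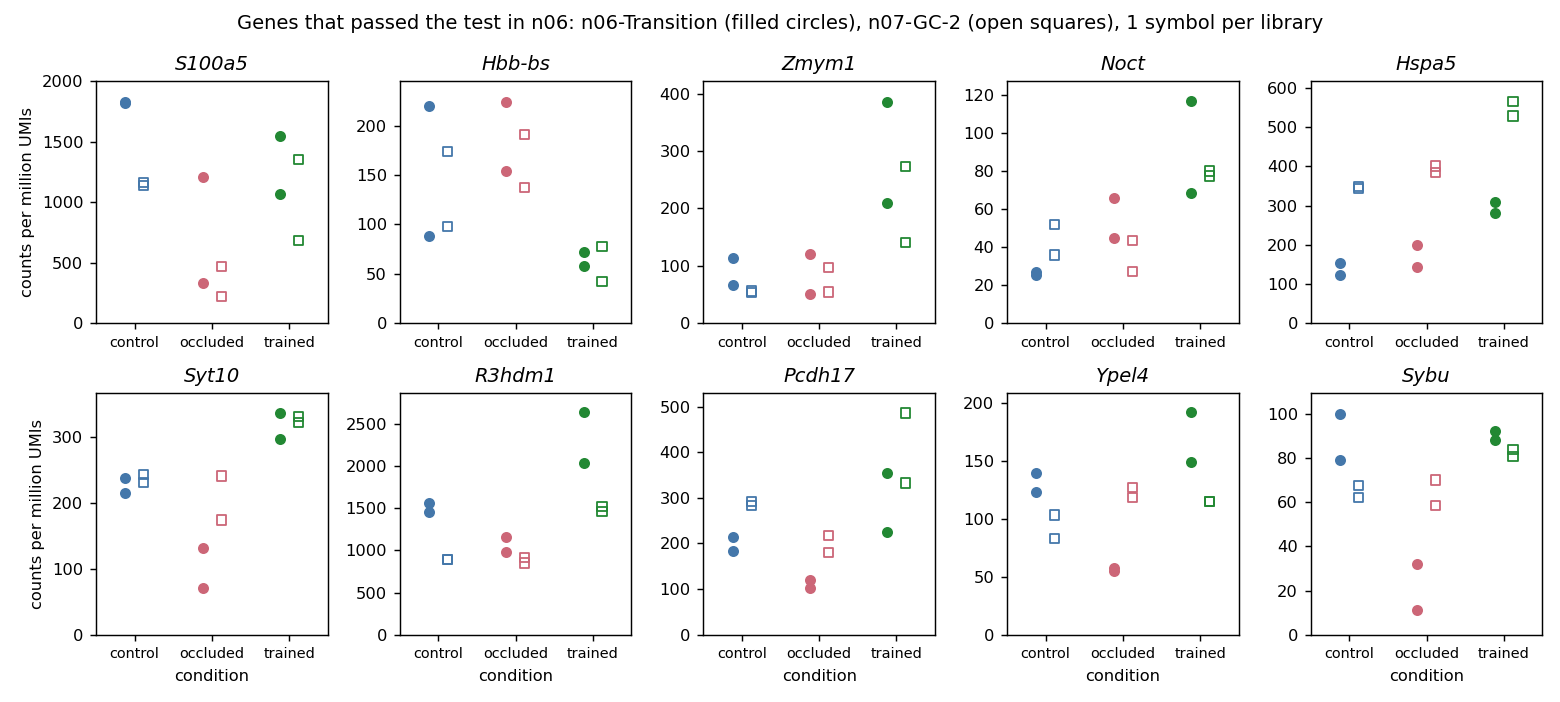
CPM of the 10 genes that passed the test between conditions in n06, for each library by condition, in n06 (filled circles) and n07 (open squares). For S100a5 occluded 2 is far below the other n06 libraries, and for R3hdm1 the n06 libraries rise from occluded (977 and 1153) through control to trained (2033 and 2643).

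The genes next in order after S100a5 between occluded and control libraries did not pass. They were Sybu (log2 difference -2.13 ± 0.50, edgeR adjusted p = 0.0885), Syt10 (-1.18 ± 0.29, adjusted p = 0.140), Aifm1, of a mitochondrial flavoprotein (-2.22 ± 0.57, adjusted p = 0.166), and Pdia4, of a disulfide isomerase of the endoplasmic reticulum (2.51 ± 0.63, adjusted p = 0.140). Pdia4 was at 13.3 and 6.32 (control), 70.5 and 49.4 (occluded) and 52.9 and 42.4 (trained) CPM, low in the control libraries alone, where it rests on 4 and 2 UMIs.

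The gene lists gave few calls between conditions. Immediate early genes, which neurons switch on within minutes of firing, summed to 714 and 803 (control), 397 and 642 (occluded) and 967 and 809 (trained) CPM in n06, lowest in occluded 1 and highest in trained 1. In n07 the sums were 491 and 691 (control), 439 and 779 (occluded) and 978 and 782 (trained) CPM. There too occluded 1 was lowest and trained 1 highest, but occluded 2 lay above both control libraries. Of the 12 tested in n06 none passed in any comparison, and 4 passed an unadjusted p under 0.05 between trained and occluded libraries. The median log2 difference was -0.48 for occluded against control, with 4 lower and none higher without overlap (15.2% and 19.8% of all genes), and 0.71 for trained against occluded, with 8 higher without overlap and none lower. Of all genes 19.4% were higher and 16.8% lower without overlap between trained and occluded libraries. For trained against control the median was 0.18, with 3 higher and 1 lower, beside 20.6% and 13% of all genes. The medians over all genes were -0.00472 for occluded and -0.00209 for trained against control and 0.00182 for trained against occluded.

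Egr1, a zinc-finger immediate early gene, was at 60.02 and 98.0 (control), 12.8 and 32.9 (occluded) and 99.1 and 71.8 (trained) CPM, and the log2 difference of trained from occluded was 1.86 ± 0.48 (edgeR adjusted p = 0.0823). Nr4a1, an orphan nuclear receptor, was at 46.7 and 60.1 (control), 25.6 and 10.98 (occluded) and 72.7 and 78.3 (trained) CPM and Fosl2, of the AP-1 complex, at 13.3 and 12.6 (control), 6.41 and 5.49 (occluded) and 52.9 and 42.4 (trained) CPM. The differences were 2.05 ± 0.53 for Nr4a1 (adjusted p = 0.0823) and 2.94 ± 0.85 for Fosl2 (adjusted p = 0.192). In all 3 genes both occluded libraries were the lowest of the 6. These low levels rest on few UMIs, since the n06 cells of the occluded libraries summed to 156085 and 182232 UMIs. Fosl2 was there near the lowest level that can be counted.

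No gene of the immature and mature lists passed between conditions. Of 23 immature genes tested, 10 were higher and 3 lower in occluded than in control libraries without overlap, and the median log2 difference was 0.26. For trained against occluded the median was -0.25, with 2 higher and 8 lower, and for trained against control -0.05. The 24 mature interneuron genes had medians of -0.16 for occluded against control (3 higher and 10 lower without overlap), 0.12 for trained against occluded (8 and 0) and 0.01 for trained against control. Over all genes 19.8% were higher and 15.2% lower without overlap in occluded than in control libraries, and 19.4% and 16.8% in trained than in occluded ones. Slc32a1 was lowest in occluded 2 and highest in trained 1. Markers of oligodendrocytes and ensheathing glia had medians of the same sign as the immature list, 0.48 and 0.17 for occluded against control and -0.46 and -0.44 for trained against occluded, and their part in it was not tested. Hspa5 was the 1 heat shock gene that passed. No gene passed in the other lists of synaptic, receptor, splicing, ribosomal, mitochondrial or regulatory genes.

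Whether a condition changed n06 differently from its neighbors was tested as the difference of differences, with each library giving a profile of both types. Between n06 and n07, 0 of 7692 genes (0%) passed for occlusion and 0 (0%) for training with edgeR, and none with DESeq2, while 389 and 376 had an unadjusted p under 0.05. Between n06 and n04, 0 of 9729 (0%) passed for occlusion, with none in DESeq2 and 441 at an unadjusted p under 0.05, and 1 (0.0103%) for training. That gene was Hbb-bs, whose change with training was lower in n06 by 2.03 on a log2 scale (SE 0.34, edgeR adjusted p = 2.67e-05). In n04 it stood at 127 and 58.9 (control), 229 and 137 (occluded) and 257 and 48.0 (trained) CPM, high in trained 1, and without that library the difference did not pass. Against n07 the occlusion differences of Pdia4 (2.42, adjusted p = 0.448) and Ypel4 (-1.57, adjusted p = 0.314) did not pass. A change in n06 that is not called in n07 is therefore not shown to differ between them.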

How the data were processed

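Bulb cells of 3 conditions with 2 libraries each were sequenced as 3′ single-cell libraries. Per the submitters' processing notes the authors used Cell Ranger 2.0.0, Seurat 2.2.1 and mm10. The deposited table holds UMI counts of 18560 genes in 52549 barcodes, of which 51426 carry an annotation and the other 1123 were left out. Doublets had been removed by the authors according to their methods, and no further filter on cells was applied. Cell types are the authors' annotation, made from the same counts. No count was normalized before deposit.

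Counts were summed per library and type and scaled to 1000000 UMIs (CPM). Ratios between types used log2 of the level plus 10 CPM, among genes of at least 20 CPM in either type. Condition effects were tested on summed counts with edgeR 4.0.16 (quasi-likelihood test, TMM, filterByExpr, all 6 libraries, Benjamini-Hochberg threshold 0.05), and shares of types on cell numbers with the same test. DESeq2 1.42.0 in R 4.3.3 was an alternative, beside other size factors, filters, denominators, cell depths, a replicate block and leaving out each library. The scripts were tested on simulated data. Tables and figures were made with Python 3.11.15, numpy 2.4.6, pandas 2.3.3, scipy 1.17.1 and matplotlib 3.10.9. Intervals cover counting error only.

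Named genes were Dcx and Crhr1, members of the lists named for their role, the 15 highest and 10 lowest against the other 17 types (at least 50 CPM), the 10 highest and lowest against n04 and n07, and, between conditions, up to 10 called genes of the largest change that moved alike in both replicate numbers, with the 5 of smallest p where under 3 were called. Genes linked to sex were left out of the last. Some members of these groups are counted but not reported here by name. List members named beyond 6 and the Sst count were chosen after the values were seen. The members and the lists were chosen with earlier results of these data known. Nothing in the labels says that the libraries of a group come from separate dissections, so p-values measure the spread between these libraries only. No sequences were read, as the genome at hand is of another build.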

Additional observations from a re-analysis of the deposited data

Results flagged for a closer look

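Hbb-bs, a hemoglobin chain of red blood cells, changed with training differently in n06 and in immature neurons n04 by a test of the difference itself, with a log2 difference of -2.03 (edgeR's quasi-likelihood interaction, adjusted p = 2.67e-05). It did not pass with DESeq2 or without trained 1, the library in which the n04 level was 257 CPM against 57.3 CPM in n06. In n06 both trained libraries were below both control libraries, and in n04 trained 1 was above and trained 2 below both control libraries. In n07, the closest type, both trained libraries were below both control libraries as well. The training difference between n06 and n07 was -0.03 (edgeR's quasi-likelihood interaction, adjusted p = 0.996), so the fall is not particular to n06.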

How the results depend on the processing

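The numbers of genes called in n06 were 1 for occlusion, 4 for training and 7 for trained against occluded libraries. DESeq2 called 0, 0 and 1. With cells of at least 1000 UMIs, where 1715 genes could be tested, occlusion gave 1, which was a higher gene and not S100a5, training 1 and trained against occluded 0. With only the compared groups in the fit, occlusion gave 2 and trained against occluded 3. Without each library in turn the counts ran from 3 to 6 for occlusion (6 without control 2), from 4 to 10 for training (10 without trained 2, 9 without trained 1) and from 3 to 23 for trained against occluded (23 without trained 2, 3 without occluded 1), with 6865 to 7235 genes tested. For occlusion every left-out library gave a higher count: 5 without control 1, trained 1 or trained 2 and 3 without either occluded library. Other size factors, a filter of 1 UMI and leaving out mitochondrial genes kept these counts within 1.5 times, although with the filter of 1 UMI the 4 of training were 2 higher and 2 lower, without Hspa5.

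The share after occlusion (-0.86) was -0.67 over all 18 neuronal types, -0.77 over all annotated bulb cells (adjusted p = 0.0624), -0.95 for cells of at least 1000 UMIs and -1.01 over the common floor, an alternative chosen after seeing the data. Without each library it ran from -1.17 to -0.47, the latter without control 2. The share of trained against occluded libraries (1.11) was 1.40 for cells of at least 1000 UMIs (adjusted p = 0.0853) and ran from 0.95 without occluded 1 to 1.30 without occluded 2. That of trained against control (0.25) ran from -0.055 without control 1 to 0.64 without control 2.

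For the difference of occlusion effects between n06 and n07 the count of 0 became 1 without mitochondrial genes, and 0 to 2 without each library (2 without occluded 2, trained 1 or trained 2). For training between n06 and n04 the count of 1 became 0 with DESeq2 and 0 to 2 without each library (0 without trained 1, 2 without trained 2). These fits without a library were added after seeing the data. A fit without a library leaves its group with 1 library, assumed to vary like the others. The causes were not tested.

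With the libraries of the annotation, the replicate numbers carry the sex of the mice, and whether control and occluded libraries share mice is not settled by the labels and the text of the study. They were not taken to pair the libraries, since deviations of same-numbered libraries correlated at 0.0170, 0.0646 and -0.0325 over 6042 genes. With the replicate block no call changed for occlusion, and the counts were 1, 3 and 6, with Hbb-bs lost for training (adjusted p = 0.0511) and Sybu for trained against occluded (0.0750), and the shares -0.84, 0.29 and 1.13. Depth limits the shares of cells with a UMI: thinned to 300 UMIs, 12.5% of n06 cells had a Dcx UMI and 3.93% a Crhr1 UMI, and without mitochondrial genes the levels were 527 and 149 CPM.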
